A study of Mus musculus with 12 samples.

Results

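Diabetic and non-diabetic kidneys of mice with an intact D6 receptor were compared across all genes measured. The comparison used 6 of the 12 arrays of the study, 3 from OVE mice and 3 from FVB mice, each array holding the kidney RNA of 1 mouse at 6 months of age. FVB mice were non-diabetic animals of the inbred FVB strain. OVE mice were diabetic and carried the OVE26 transgene on the same FVB background, and both groups were wild type for D6. The remaining arrays came from D6 knockout mice without diabetes (the group D6) and from diabetic D6 knockouts (OVE-D6), with 3 arrays each. Those 6 arrays entered the fit to help estimate the spread and were otherwise used to set the OVE against FVB difference beside the same difference without D6. Every value is a deposited log2 value, every difference is OVE minus FVB on that scale, and an error after ± is the standard error of a difference (SE, n = 3 per group). A gene was called where limma's moderated test gave an adjusted p under 0.05 over all 16480 genes tested. The p-values measure the spread between these mice, 1 array each, and the number of arrays limits the precision.

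The OVE26 line is a model of early insulin loss. Its transgene makes calmodulin in the insulin-producing beta cells of the pancreas, the cells fail soon after birth, and blood glucose stays high for life. In the kidney, long hyperglycaemia enlarges glomeruli, loads the tubules with filtered glucose and protein, and is followed by albumin loss, infiltration by macrophages and scarring between the tubules. D6, encoded by Ackr2, is an atypical receptor that takes up inflammatory CC chemokines and degrades them without signalling, and here it was present in both groups. The arrays measured whole kidney, so that more cells of a type and more RNA per cell cannot be told apart in any result below.

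Of the 16480 genes tested, 1200 (7.28%) passed. Levels were higher in OVE for 808 of them (4.9% of the genes tested) and lower for 392 (2.38%). Every count of called list members below is to be read beside these shares. The OVE and FVB arrays did not overlap for 798 of the 808 higher genes and 390 of the 392 lower ones. A lack of overlap given for a called gene below therefore adds little to its call. The largest rises and falls named below were also chosen to be without overlap. The rises were larger than the falls. The median size of a called difference was 0.63 among higher genes and 0.42 among lower ones. At least 2-fold changes numbered 139 upwards and 13 downwards, and 7 genes rose at least 4-fold against 0 that fell so far. The called genes that rose had a median FVB level of 7.34, and those that fell had one of 8.23, beside 7.91 for all genes tested. A background level of 5.93 was taken from olfactory receptor genes (the value that 95% of them did not exceed), and the FVB mean of 120 of the 808 did not exceed it. Their folds start from background and have no exact size. Those named below are Akr1b8, Ccl2, Ccr2, Cd3g, Cfi, Clec10a, Cxcl11, Cyp2j13, Eda2r, Gpnmb, Il7r, Krt20, Lyz1, Mcm6, Mmp19, Ms4a6d, Timp1, Tlr1, Tlr13 and Top2a. Among falls, the OVE means of Slc7a13, Slitrk6 and Sntg1 lay under that level. The split between directions depended on the scaling. Centring each array on its median gave 667 higher and 870 lower genes (43.4% higher, against 67.3% as deposited), and quantile normalization gave 701 and 506.

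**Figure D1:**
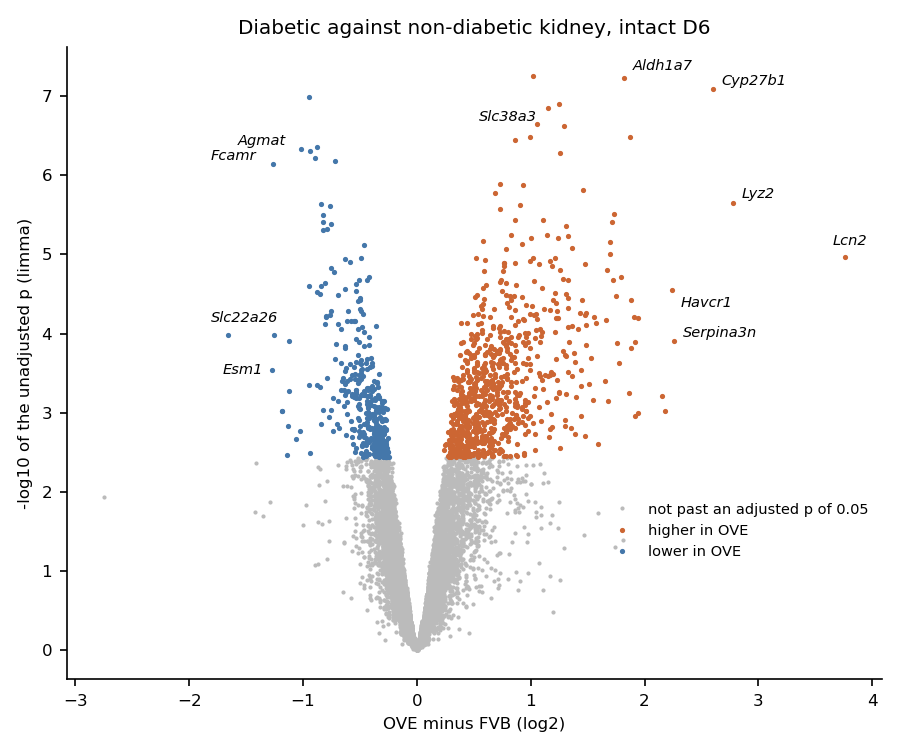
Each point is 1 of the 16480 genes tested, with the OVE minus FVB difference (log2) on the horizontal axis and -log10 of limma's unadjusted p on the vertical axis. Orange marks the 808 genes that were higher in OVE and blue the 392 that were lower, and the orange side reaches further, to 3.76 for Lcn2.

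The 3 OVE kidneys were not alike. Within the 808 genes that rose, the median distance from the FVB mean was 0.66 in OVE replicate 1, 0.80 in replicate 2 and 0.42 in replicate 3. Replicate 3 was the lowest OVE array in 593 of them. For the 392 genes that fell, the 3 kidneys lay closer together, at -0.41, -0.47 and -0.37. On the first principal component of the 6 arrays, with 54.7% of the variance, OVE replicates 1 and 2 stood at 23.8 and 25.7, OVE replicate 3 at 2.2, and FVB arrays between -18.9 and -15.1. Leaving out an array also makes its group smaller, whichever array it is, and that was not separated from the unlikeness of the kidneys. Single arrays moved the total. It was 671, 476 and 427 without FVB replicates 1, 2 and 3, and 716, 359 and 1901 without OVE replicates 1, 2 and 3. Among 221 called genes picked by the naming rule, 85 kept the call with any 1 of the 12 arrays left out. The call was lost without OVE replicate 2 for 127 of the 221, without FVB replicates 1, 2 and 3 for 89, 98 and 109, without OVE replicates 1 and 3 for 79 and 13, and without each of the knockout arrays for 15 to 21. With FVB and OVE arrays alone, where the knockout arrays lent no estimate of the spread, 110 of the 221 lost the call. Below, a gene said to hold under omission is 1 of the 85, which concerns the omission of single arrays only.

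**Figure D2:**
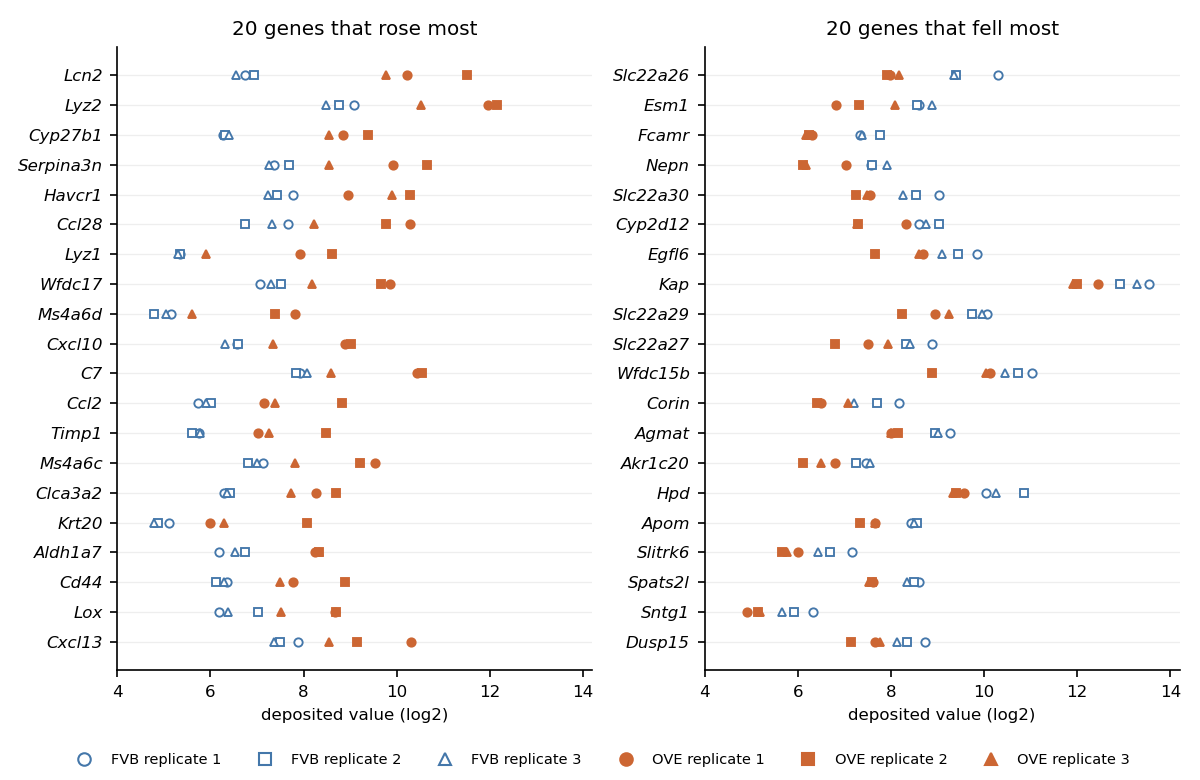
Deposited log2 values on the horizontal axis for the 20 genes that rose most (left) and the 20 that fell most (right) among called genes whose groups did not overlap, with open blue symbols for FVB and filled orange symbols for OVE, shaped by replicate. Lcn2 has the widest gap, and OVE replicate 3 is the OVE array nearest to FVB for genes such as Lyz1 and Ms4a6d.

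Several check genes described the tissue. Ackr2 lay between 6.81 and 7.04 on the 6 arrays and differed by -0.01 ± 0.08 (adjusted p = 0.946). Xist, expressed from the inactive X chromosome, lay between 12.70 and 12.87. The Y-linked genes Kdm5d (4.93 to 5.22), Eif2s3y (3.55 to 3.83) and Uty (4.02 to 4.29) lay under background on the same 6 arrays. Together these are the values of female kidneys. The tubule genes Slc34a1 and Umod, which define kidney, were at 13.51 or above and at 12.80 or above on all 6 arrays. Fat genes differed between the FVB arrays themselves. Ucp1, the uncoupling protein of brown fat, stood at 4.86, 10.09 and 8.29 in FVB and between 4.97 and 5.03 in OVE, and did not pass (adjusted p = 0.092). In limma's test 0 of 12 fat markers and 0 of 9 adrenal markers passed, with 3 and 1 at an unadjusted p under 0.05. Adrenal genes were nevertheless high on single arrays. In OVE replicate 1, Cyp17a1 and Star stood at 7.25 and 7.07, against 5.82 to 5.97 and 6.27 to 6.51 in FVB. Cyp11b1 stood at 9.93 in OVE-D6 replicate 3 and at 5.76 or below on every other array. Star was at 8.87 on that array, which entered the estimate of the spread and the knockout difference. Of the 4 calmodulin genes tested, 0 passed by limma and 1 had an unadjusted p under 0.05.

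Markers of injured tubules rose. Of 22 measured, 12 passed upwards, against the 4.9% of all genes tested that did so, and the list's median difference was 0.76 beside -0.018 for all genes. Lcn2, which encodes the siderophore-binding protein NGAL shed by damaged tubules, stood at 6.74, 6.94 and 6.54 in FVB and at 10.23, 11.51 and 9.77 in OVE, a 13.6-fold difference of 3.76 ± 0.53 (adjusted p = 0.00341). Havcr1, the phosphatidylserine receptor KIM-1 of injured proximal tubule, stood at 7.77, 7.42 and 7.24 in FVB and at 8.96, 10.29 and 9.90 in OVE (4.71-fold). For both genes every OVE array lay above every FVB array, which was a condition for being picked among the largest rises. OVE replicate 2 was the highest in both. The hyaluronan receptor gene Cd44 stood at 6.35, 6.12 and 6.30 in FVB and at 7.77, 8.88 and 7.50 in OVE, 3.46-fold higher. Krt20, a keratin of urothelium that injured tubules also make, went from 5.11, 4.88 and 4.79, at the background level, to 5.99, 8.07 and 6.30. Vcam1, an adhesion molecule for leukocytes, was 2.52-fold and the annexin gene Anxa1 1.86-fold higher. Urothelial markers other than Krt20 stayed under the threshold, and Upk1b, a uroplakin gene, ranged from 6.76 to 7.86 in FVB and from 8.03 to 9.04 in OVE (adjusted p = 0.124). All of these rises but that of Krt20 held under omission, and the count of 12 was 6 without FVB replicate 3.

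Plasma-type acute-phase genes rose as well, 8 of the 15 tested, with a median difference of 0.60. Serpina3n, a secreted protease inhibitor, stood at 7.37, 7.68 and 7.26 in FVB and at 9.91, 10.65 and 8.55 in OVE (4.79-fold). Genes of 2 fibrinogen chains rose together. Fga went from 7.72, 7.89 and 7.56 to 9.03, 9.28 and 8.71, and Fgg from 7.26, 7.77 and 7.70 to 8.81, 9.77 and 9.19. In both, every OVE array lay above every FVB array. Cp, the copper-carrying ferroxidase ceruloplasmin, was 2.11-fold higher and Lrg1, a secreted leucine-rich glycoprotein, 2.27-fold. Smaller rises were those of Lbp, Itih3 and Serping1, between 1.34-fold and 1.57-fold. Haptoglobin (Hp) and Saa3 did not pass, with differences of 0.11 ± 0.31 and 0.24 ± 0.18. Serpina3n, Fga and Cp held under omission, while the count of 8 was 3 without OVE replicate 2 and also moved by over 1.5 times without FVB replicate 1 or 3.

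Chemokine genes were higher in OVE for 8 of 15 CC members tested and 5 of 13 members of the CXC, CX3C and XC classes. Ccl2, the main attractant of CCR2-bearing monocytes, stood at 5.73, 6.02 and 5.90 in FVB, near the background level, and at 7.16, 8.82 and 7.39 in OVE (3.75-fold). Ccl28, an epithelial chemokine, rose 4.53-fold, from 7.66, 6.75 and 7.32 to 10.28, 9.77 and 8.22. The 2 genes differed in which kidney led, OVE replicate 2 for Ccl2 and OVE replicate 1 for Ccl28, and in neither did the groups overlap. Myeloid Ccl9 and Ccl6 were 3.19-fold and 2.80-fold higher, the T cell attractants Ccl5 and Ccl17 2.34-fold and 2.15-fold, and Ccl7 and Ccl3 1.83-fold and 1.58-fold. Among CXC genes, Cxcl10, an interferon-induced ligand of CXCR3, stood at 6.58, 6.60 and 6.32 in FVB and at 8.88, 9.02 and 7.35 in OVE. Cxcl13, which attracts B cells, stood at 7.88, 7.50 and 7.36 against 10.31, 9.15 and 8.54. Cxcl16 and Cxcl11 rose 1.80-fold and 1.73-fold, and the neutrophil attractant Cxcl1 1.54-fold, with values of 7.03, 7.11 and 6.80 against 7.23, 7.98 and 7.59. Of 11 chemokine receptor genes, Ccr2 (2.95-fold) and Cx3cr1 (a difference of 0.58 ± 0.12), both of monocytes, passed, and Ccr7 did not (-0.27 ± 0.13). Ccl2, Ccl6, Ccl9, Cxcl10, Cxcl13, Cxcl16 and Ccr2 held under omission. Ccl3 was the least secure, with adjusted p = 0.0493 and up to 0.173 under the alternatives. The CC count fell to 3 without FVB replicate 3 and moved by over 1.5 times without FVB replicate 1 or 2. The CXC count was 3 without FVB replicate 2 or OVE replicate 2.

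A list of TNF, NF-kappaB and cytokine genes rose in 9 of 17 cases. NF-kappaB is the transcription factor family that TNF and Toll-like receptors switch on, and Tnfaip3 and Birc3 encode proteins that damp or shape its activity. Tnfrsf1a and Tnfrsf1b, the TNF receptor genes, rose by 0.59 ± 0.09 and 0.83 ± 0.14. Tnfrsf1a stood at 9.28, 9.32 and 9.22 in FVB and at 9.91, 9.96 and 9.71 in OVE, with no overlap. Icam1, an adhesion molecule, rose 1.77-fold, Tnfrsf12a, the receptor of TWEAK, 1.71-fold, Birc3 1.65-fold and Tnfaip3 1.48-fold. Both ligands of the macrophage growth factor receptor rose, Csf1 from 7.54, 7.43 and 7.36 to 8.41, 8.71 and 8.22 and Il34 1.51-fold. The gene of that receptor, Csf1r, stood at 9.75, 9.21 and 9.29 against 9.87, 9.67 and 9.19, with overlapping groups and adjusted p = 0.624. Il1rn, the interleukin 1 receptor antagonist, was 1.56-fold higher. Toll-like receptor genes and their partners passed in 6 of 12 cases, among them Tlr13 (2.64-fold), Cd14 (2.39-fold), Tlr1 (2.06-fold), Tlr2 (1.80-fold) and Tlr4 (1.49-fold). Tnfrsf1a, Tnfrsf1b, Icam1, Tnfrsf12a, Csf1 and Cd14 held under omission. The count of 9 was 5 without FVB replicate 1 or 2 or OVE replicate 2, and the Toll-like count was as low as 1 without FVB replicate 2 or OVE replicate 2 and also moved by over 1.5 times without FVB replicate 1 or 3 or OVE replicate 1.

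The promoters of Cxcl1 and Csf1 are shown as examples of called genes, chosen because they hold an NF-kappaB type sequence in the 250 bases before the start. Windows came from RefSeq (GRCm38.p6), which gave promoters for 12971 of the 16480 genes tested and 952 of the 1200 called. The letters GGG, any 2 bases, then TTTCC were searched on both strands in the 250 bases before each start and are in capitals, and each stretch ends at the base before the start.
Cxcl1 (chr5:90891135-90891244, plus strand): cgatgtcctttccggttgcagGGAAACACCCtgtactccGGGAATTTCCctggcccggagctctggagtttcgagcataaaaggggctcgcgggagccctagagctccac
Csf1 (chr3:107760470-107760639, minus strand): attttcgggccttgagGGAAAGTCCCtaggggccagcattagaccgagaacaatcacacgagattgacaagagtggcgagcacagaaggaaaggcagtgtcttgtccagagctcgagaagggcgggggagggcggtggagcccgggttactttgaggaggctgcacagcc
The first Cxcl1 match begins 89 bases before the start and the second 71, and the Csf1 match begins 154 bases before it. The motif was found in 1.45% of all 16298 windows, in 3 of 11 windows of called TNF and NF-kappaB genes (Tnfaip3, Csf1 and Il1rn) and in 1 of 5 of called CC chemokines (Ccl9). It was in 1 of 3 windows of called CXC group chemokines (Cxcl1) and in 1 of 12 of called tubular injury markers (Vim). Of called acute-phase genes it was in 1 of 7 windows, that of Serpina3n, where it began 171 bases before the start. An interferon response type (TTTC, any 2 bases, TTTC) was in 2.6% of all windows and in 1 of 3 of called CXC group chemokines (Cxcl10). It was in 0 of 1 window of called interferon-induced genes and in 0 of 1 of called MHC class II genes. A match is a description of sequence, and binding was not measured.

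Macrophage markers had the largest median difference of the 67 lists examined, with 19 of 21 tested genes higher and a median difference of 1.26. Lyz2, the lysozyme gene of myeloid cells, stood at 9.08, 8.75 and 8.47 in FVB and at 11.97, 12.15 and 10.53 in OVE (6.88-fold). Adgre1, which encodes the macrophage surface protein F4/80, went from 7.10, 6.20 and 6.41 to 8.73, 8.15 and 7.36 (2.84-fold). Cd68, a lysosomal glycoprotein of phagocytes, went from 7.03, 6.83 and 6.96 to 8.58, 9.31 and 8.02. No OVE array overlapped with FVB in these 3 genes, and replicate 3 was the lowest of the OVE kidneys in each. Gpnmb (2.81-fold), C1qc (2.79-fold), Mpeg1 (2.72-fold) and the elastase gene Mmp12 (2.67-fold) followed. The membrane-spanning gene Ms4a6c rose 3.68-fold and Wfdc17 3.85-fold. Ms4a6d, at 5.16, 4.78 and 5.05 against 7.82, 7.39 and 5.60, and Lyz1, the Paneth cell lysozyme, at 5.34, 5.34 and 5.31 against 7.92, 8.60 and 5.91, also rose, from FVB levels under background and with OVE replicate 3 at or under it. Lyz1 and Lyz2 are close paralogs, and how far their probes cross-react was not tested. The mean level of the 21 markers was 6.94 to 7.18 on the FVB arrays and 7.60 to 8.64 on the OVE arrays, lowest in replicate 3. Lyz2, Cd68, Cd14, Gpnmb, Mmp12, Ms4a6c and Wfdc17 held under omission. The count of 19 was 8 without OVE replicate 2 and moved by over 1.5 times without FVB replicate 2 or 3 or OVE replicate 1.

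Lysosomal cathepsins, the proteases of phagocytes and tubules, rose in 6 of 10 cases. Ctss, abundant in macrophages, stood at 7.09, 6.74 and 7.11 in FVB and at 8.96, 8.78 and 7.50 in OVE (2.71-fold). Ctsd was tight, at 11.72, 11.70 and 11.69 against 12.11, 12.52 and 12.13, and alone of the 6 held under omission. Ctsc (1.98-fold), Ctsk (1.66-fold), Ctse (1.61-fold) and Ctsb (1.26-fold) were the others, with no overlap in any of the 6. The count of 6 was 1 without FVB replicate 2 or OVE replicate 2 and moved by over 1.5 times without FVB replicate 1 or 3 or OVE replicate 1.

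Other white cell markers moved less, in counts to be read beside the 4.9% of all genes tested that rose. Clec10a, a lectin of dendritic cells and macrophages, rose from 5.66, 5.77 and 5.68 to 7.69, 7.90 and 6.68, and Irf8, a transcription factor of the same lineages, rose 1.43-fold. They were the 2 of 10 dendritic cell markers that passed. Il7r (2.46-fold) and Cd3g (1.89-fold) were 2 of 11 T and NK cell markers, and Cd3e did not pass (0.54 ± 0.17, adjusted p = 0.0706). Sdc1, an epithelial and plasma cell proteoglycan, was the single B and plasma cell marker of 8. Among 6 neutrophil markers, Csf3r and Mmp9 passed, at 1.52-fold and 1.24-fold. Sdc1 and Clec10a held under omission. The T and NK count ran from 0 (without FVB replicate 2 or 3 or OVE replicate 1 or 2) to 5 (without OVE replicate 3), the neutrophil count reached 0 without those same 4 arrays, the dendritic count was 1 without FVB replicate 2 or 3, and the B cell count was 4 without OVE replicate 3.

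Complement genes passed in 10 of 13 cases, 9 upwards. C7, a membrane attack component, stood at 7.93, 7.83 and 8.07 in FVB and at 10.44, 10.55 and 8.58 in OVE (3.77-fold). The anaphylatoxin receptor genes C3ar1 and C5ar1 rose 2.79-fold and 1.82-fold, and C5ar1 was tight, at 6.41, 6.44 and 6.27 against 7.25, 7.43 and 7.01. Classical pathway genes rose, C1qa 1.91-fold, C1ra 1.65-fold, C1s1 1.72-fold and C4b 1.93-fold, and so did Masp1 of the lectin pathway (2.31-fold) and the inhibitor Cfi (1.67-fold). Cfb of the alternative pathway was the exception. It fell from 10.68, 10.68 and 10.77 to 10.31, 10.40 and 10.43, 1.26-fold lower (adjusted p = 0.036). C3ar1, C5ar1 and Masp1 held under omission. The count of 9 was 3 without FVB replicate 3 or OVE replicate 2 and moved by over 1.5 times without FVB replicate 1 or 2 or OVE replicate 1, and the call of Cfb was lost without any of those 5 arrays and without OVE-D6 replicate 1.

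Antigen presentation and interferon genes were uneven among the OVE kidneys, with counts to be read beside the 4.9% of all genes tested that rose. Cd74, the invariant chain of MHC class II, stood at 10.34, 9.61 and 9.48 in FVB and at 12.01, 11.94 and 10.26 in OVE, where the third kidney lay inside the FVB range. H2-Aa stood at 8.08, 7.90 and 7.73 against 9.48, 9.16 and 8.18. These were the 2 of 8 MHC class II genes that passed, although the list's median was 0.94. By array, that median was 1.65, 0.95 and 0.05 above the FVB mean in OVE replicates 1, 2 and 3. Interferon-induced genes followed the same order at 0.72, 0.43 and 0.08, and Oasl2 and Oas2, antiviral enzymes, were the 2 of 15 that passed (1.67-fold and 1.48-fold). Iigp1, an interferon-gamma GTPase, stood at 11.22 in OVE replicate 1 and at 7.79 and 7.20 in the other OVE arrays, against 7.32, 6.67 and 6.78 in FVB, and did not pass (adjusted p = 0.184). The immunoproteasome genes Psmb8 and Psmb9 were also highest in OVE replicate 1, at 8.27 and 9.92, with 6.72 to 6.94 and 7.98 to 8.08 in the other OVE arrays. Neither passed, and limma called 0 of 12 proteasome genes (4 at an unadjusted p under 0.05). The MHC class II count ran from 0 (without FVB replicate 2 or 3 or OVE replicate 1 or 2) to 6 (without OVE replicate 3), and the interferon count from 0 (without any FVB array or OVE replicate 2) to 6 (without OVE replicate 3). Both counts also moved by over 1.5 times without some of the knockout arrays, and the interferon count without OVE replicate 1.

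Extracellular matrix genes rose, while collagen genes were called in both directions. Of 22 genes for glycoproteins, proteoglycans and cross-linking enzymes 11 rose, of 17 metalloproteinases and inhibitors 7 rose, and of 18 collagens 5 rose and 2 fell. Timp1, an inhibitor of metalloproteinases, stood at 5.75, 5.60 and 5.78 in FVB, at or below the background level, and at 7.03, 8.49 and 7.26 in OVE (3.69-fold). Col12a1, a fibril-associated collagen, went from 7.41, 7.58 and 7.30 to 9.03, 9.57 and 8.90 (3.33-fold). Fn1, fibronectin, went from 9.88, 9.66 and 9.87 to 10.88, 11.88 and 10.73 (2.57-fold). All 3 were highest in OVE replicate 2, and their groups did not overlap. The lysyl oxidase genes Lox and Loxl1, which cross-link collagen and elastin, rose 3.42-fold and 1.57-fold. Postn (2.23-fold), Thbs2 (2.08-fold), the proteoglycans Dcn (1.89-fold) and Lum (1.84-fold), and the proteases Mmp14 (2.04-fold), Mmp2 (1.99-fold) and Mmp19 (1.82-fold) rose too.

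Among collagen genes, Col1a2, Col4a2, Col14a1 and Col6a3 rose between 1.27-fold and 1.79-fold. Col1a1, the partner chain of Col1a2, stood at 8.09, 8.33 and 8.33 in FVB and at 8.81, 9.91 and 8.70 in OVE and missed the threshold (adjusted p = 0.0702). Col3a1 missed it too (0.65 ± 0.22, adjusted p = 0.0956). In both genes all OVE arrays lay above all FVB arrays, as in 13.6% of all genes tested, with OVE replicate 2 far ahead. Col4a3 and Col4a4, the chains of the mature glomerular basement membrane, fell instead. Col4a3 went from 8.98, 8.97 and 8.91 to 8.41, 8.50 and 8.60, and Col4a4 from 9.13, 9.14 and 9.14 to 8.78, 8.50 and 8.84 (1.37-fold and 1.35-fold lower). Col4a5, the third chain of that network, stood at 7.23, 7.43 and 7.18 against 7.02, 7.12 and 7.28 and did not pass. Col4a1 did not pass (0.37 ± 0.14), while its partner Col4a2 stood at 8.52, 8.52 and 8.43 against 8.90, 9.31 and 9.05. Col12a1 and Col4a3 held under omission, and the 5 rises were 1 without FVB replicate 3 or OVE replicate 2 and 10 without OVE replicate 3, and moved by over 1.5 times without FVB replicate 1 or 2. Col4a4 lost its call without any FVB array or OVE replicate 2. The count of 11 matrix genes was 3 without OVE replicate 2 and moved by over 1.5 times without FVB replicate 1 or 3 or OVE replicate 1. The metalloproteinase count was 3 without FVB replicate 3 or OVE replicate 1 or 2, and moved by over 1.5 times without FVB replicate 1 or 2.

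TGF-beta, the growth factor that drives matrix production, was represented by 22 genes, of which 6 rose, beside 4.9% of all genes tested. Tgfb2 went from 7.32, 6.94 and 7.22 to 7.99, 8.28 and 7.81 (1.82-fold), while Tgfb1 stood at 8.03, 7.98 and 7.76 against 8.10, 8.58 and 8.12 and did not pass (adjusted p = 0.148). The receptor gene Tgfbr2 rose 1.25-fold. The pathway's targets Tgfbi, a matrix adaptor, and Ccn2, connective tissue growth factor, rose 2.08-fold and 1.73-fold. Tgfbi was among the 10 genes with the smallest p, predicted genes left out, at 8.33, 8.64 and 8.64 in FVB and 9.60, 9.76 and 9.42 in OVE. Grem1, a BMP antagonist, and Pdgfa, a growth factor for mesenchymal cells, rose 1.76-fold and 1.41-fold. Markers of fibroblasts, pericytes and smooth muscle rose in 5 of 13 cases, and the smooth muscle actin gene Acta2 was even across kidneys, at 9.87, 9.99 and 9.93 against 10.90, 10.94 and 10.81. Cnn1 (2.13-fold), Tagln (2.10-fold), Des (1.72-fold) and Myl9 (1.57-fold) were the others. Tgfb2, Tgfbi, Des, Timp1, Fn1, Mmp2, Loxl1 and Thbs2 held under omission. The TGF-beta count was 2 without FVB replicate 1 or 3 or OVE replicate 2, and the fibroblast, pericyte and smooth muscle count 2 without FVB replicate 3 or OVE replicate 2 and 8 without OVE replicate 3. Each also moved by over 1.5 times without FVB replicate 2, and the latter count without FVB replicate 1 or OVE replicate 1.

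Cell cycle genes rose in 18 of 28 cases, with a median difference of 0.69. Mcm6, a subunit of the helicase that opens DNA for replication, stood at 5.94, 5.99 and 5.85 in FVB and at 7.10, 7.25 and 7.12 in OVE (2.35-fold, adjusted p = 0.00636). No OVE array lay near the FVB values. Mki67, the proliferation antigen Ki-67, stood at 6.54, 6.54 and 6.15 against 7.66, 7.98 and 7.29 (2.35-fold). The mitotic genes Ccnb2, Ccna2, Top2a and Cdk1 rose between 2.25-fold and 2.32-fold, Cdk1 from 6.04, 5.78 and 6.02 to 7.21, 7.51 and 6.64. The FVB levels of Mcm6, Cdk1 and Top2a were close to the background level of 5.93. By array the list's median distance from the FVB mean was 0.84, 0.85 and 0.39. Mcm6 held under omission. The count of 18 was 3 without OVE replicate 2 and 22 without OVE replicate 3, and moved by over 1.5 times without any FVB array or OVE replicate 1.

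Promoters of 4 called cell cycle genes are shown because the list shares short sequences near its start sites. Searched on both strands were CCAAT, the site of the factor NF-Y, TTTGAA, a cell cycle homology region bound by the DREAM complex, and TTTNNCGC, an E2F type. Matches to the motifs named for each gene are in capitals, and each stretch ends at the base before the start (RefSeq, GRCm38.p6, all on the minus strand).
Mcm6 (chr1:128359706-128359855, CCAAT and E2F type): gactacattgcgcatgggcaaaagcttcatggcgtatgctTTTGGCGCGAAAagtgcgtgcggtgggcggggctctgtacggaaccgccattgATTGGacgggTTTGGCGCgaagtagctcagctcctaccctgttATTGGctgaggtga
Cdk1 (chr10:69352913-69353062, all 3 motifs): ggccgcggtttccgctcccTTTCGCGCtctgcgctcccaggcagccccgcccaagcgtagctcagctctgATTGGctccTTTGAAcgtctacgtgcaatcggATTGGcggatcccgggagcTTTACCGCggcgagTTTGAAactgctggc
Top2a (chr11:99024190-99024299, CCAAT and TTTGAA): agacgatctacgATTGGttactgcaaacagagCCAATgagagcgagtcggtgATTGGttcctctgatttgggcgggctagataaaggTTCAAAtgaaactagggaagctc
Ccnb2 (chr9:70421555-70421664, CCAAT): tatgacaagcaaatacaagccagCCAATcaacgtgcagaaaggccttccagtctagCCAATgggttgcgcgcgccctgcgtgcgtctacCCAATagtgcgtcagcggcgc
In the Mcm6 stretch the first capitals hold 2 overlapping E2F type matches, 1 per strand. CCAAT was in 13 of 15 windows of the called cell cycle genes (86.7%) and in 34% of all windows, TTTGAA in 6 of 15 and in 11.3%, and TTTNNCGC in 4 of 15 and in 5.97%. Ccnb2 has its 3 CCAAT matches 87, 54 and 21 bases before the start. These shares describe the genes that passed, and no factor's binding was measured.

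Targets of p53, the DNA damage regulator, and cell cycle inhibitors rose in 6 of 16 cases, with nearly equal medians in the 3 OVE kidneys, 0.36, 0.32 and 0.33. Eda2r, a TNF receptor family member induced by p53, stood at 5.39, 5.64 and 5.26 in FVB and at 6.55, 7.03 and 6.58 in OVE (2.44-fold, adjusted p = 0.000497). Phlda3, an inhibitor of AKT, rose 2.03-fold, from 6.91, 7.42 and 7.39 to 8.17, 8.48 and 8.13. Gadd45b, Plk2, Cdkn2c and Ccng1 rose between 1.28-fold and 1.57-fold, whereas the senescence inhibitor Cdkn2a stood at 5.86, 6.10 and 6.11 against 5.89, 5.95 and 6.09. Among 18 immediate early genes, Myc (2.25-fold), Fosl2 (1.77-fold) and Klf6 (1.67-fold) rose, beside 4.9% of all genes tested. Fos and Egr1 did not pass, each with OVE replicate 3 highest among the OVE arrays. Eda2r, Phlda3, Myc and Fosl2 held under omission. The p53 count was 3 without FVB replicate 2 or OVE replicate 2, and the immediate early count was 5 without OVE replicate 1.

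A list of glucocorticoid binding proteins, converting enzymes and targets, which carry or answer the signal of adrenal steroids, rose in 5 of 13 cases with a median of 0.59. Fkbp5, a chaperone of the steroid receptor, stood at 8.02, 7.85 and 8.01 in FVB and at 9.85, 9.68 and 8.70 in OVE (2.73-fold). The metallothionein genes Mt1 and Mt2, which bind zinc and copper, rose together and evenly, Mt1 from 10.43, 10.19 and 10.41 to 11.27, 11.17 and 11.17 and Mt2 from 12.23, 12.04 and 12.18 to 13.10, 13.12 and 12.97. Per1, a clock gene, rose 1.69-fold and Hsd11b1, which regenerates active glucocorticoid, 1.51-fold. Sgk1 (0.49 ± 0.17) and Tsc22d3 (0.41 ± 0.13) did not pass. Per1 was the 1 of 16 clock genes that passed. In the NRF2 and antioxidant list 4 of 22 rose, the metallothioneins, Nqo1 (1.76-fold) and Gsta3 (1.36-fold), and Hmox1 did not pass, at 8.19, 9.47 and 8.29 in FVB against 8.58, 9.51 and 9.80. Asns (1.73-fold) was the 1 of 20 unfolded protein genes and Adm (1.59-fold) the 1 of 16 hypoxia genes to rise, shares near the 4.9% of all genes tested, as was that of clock genes. NADPH oxidase genes and Txnip rose in 5 of 11 cases, and 4 of these, Cybb, Rac2, Ncf4 and Ncf1, are genes of phagocytes, with Txnip, the glucose-induced thioredoxin inhibitor, the remaining one at 1.42-fold. Nox4, the oxidase of tubule cells, stood at 12.14, 12.12 and 12.28 against 11.56, 11.37 and 12.06 (adjusted p = 0.0508). Fkbp5, Mt1, Mt2, Nqo1, Asns and Adm held under omission. The glucocorticoid count was 3 without FVB replicate 3 or OVE replicate 1 or 2. The oxidase count was 0 without FVB replicate 2 or 3 or OVE replicate 1 or 2, and moved by over 1.5 times without FVB replicate 1 and 3 of the knockout arrays.

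Fuel genes shifted at a few points. Of 27 genes of fatty acid oxidation and PPAR alpha, the receptor that senses fatty acids, 8 rose, beside 4.9% of all genes tested. Angptl4, an inhibitor of lipoprotein lipase, stood at 7.28, 7.68 and 7.24 in FVB and at 9.49, 9.26 and 8.54 in OVE (3.25-fold). Pdk4, which shuts pyruvate out of mitochondrial oxidation, stood at 9.31, 9.96 and 9.12 against 11.17, 10.69 and 10.36 (2.43-fold). The acyl-CoA thioesterase genes Acot1 and Acot2 rose 1.76-fold and 1.41-fold, the lipid droplet gene Plin2 1.49-fold and the fatty acid hydroxylase gene Cyp4a14 1.37-fold. Cpt1a, the entry step of oxidation, stood at 12.01, 12.04 and 12.06 against 12.25, 11.97 and 12.06, and Ppara and Ppargc1a did not pass (-0.11 ± 0.14 and -0.32 ± 0.09). Acsf2, a medium-chain acyl-CoA synthetase, was among the same 10 smallest p values as Tgfbi, at 8.49, 8.58 and 8.83 against 9.92, 9.77 and 9.97. Oxct1, the first enzyme of ketone body use, fell from 11.65, 11.49 and 11.50 to 11.10, 10.93 and 11.18, while Slc16a1, a lactate and ketone carrier, rose 1.47-fold. Apoe rose 1.95-fold and Vldlr, a lipoprotein receptor, fell 1.29-fold, and the fat markers that separate FVB replicate 1 from the other FVB arrays were not tested as a part of these values. Angptl4, Pdk4, Acot1, Acsf2 and Oxct1 held under omission. The count of 8 was 3 without FVB replicate 3 and moved by over 1.5 times without FVB replicate 1 or 2 or OVE replicate 1.

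Lipid synthesis, glucose and respiratory genes changed little, to be read beside the 4.9% of all genes tested that rose and the 2.38% that fell. Of 22 genes of cholesterol and fatty acid synthesis 20 had a negative difference, with a median of -0.17, but the single call was Srebf1, a master regulator of lipogenesis, which fell from 8.63, 8.79 and 8.72 to 8.13, 8.09 and 8.55. Median centring gave 7 calls and omission of OVE replicate 3 gave 5, and the call of Srebf1 was lost without any FVB array or without OVE replicate 1 or 2. Limma called 0 of 24 genes of the respiratory chain and ATP synthase, with 0 at an unadjusted p under 0.05 and a median of -0.03. Gluconeogenesis enzymes stayed close to FVB, Pck1 at 12.99, 13.25 and 13.39 against 13.21, 13.18 and 13.20, and Irs1, an insulin receptor substrate, was the 1 gene of 20 on that list to pass, 1.40-fold lower. Of glycolysis genes, Eno2 (1.48-fold) and Pfkfb4 (1.26-fold) rose. Glucose carriers of the proximal tubule did not pass, Slc5a2 with -0.22 ± 0.12, Slc5a1 with 0.25 ± 0.12 and Slc2a2 with 0.34 ± 0.19, while Slc5a10, a mannose and fructose carrier, rose 1.53-fold and Slc2a12 fell by 0.58. Akr1b8, an aldose reductase relative, rose from 5.39, 5.74 and 5.62 to 6.46, 6.97 and 6.29, and alone of the genes in this paragraph held under omission.

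Vitamin D and mineral genes contained some of the largest single changes, with 5 of 26 higher and 5 lower (3 and 7 after median centring). Of all genes tested, 4.9% were higher and 2.38% lower. Cyp27b1, the 1-alpha-hydroxylase that makes active vitamin D, stood at 6.27, 6.31 and 6.39 in FVB and at 8.84, 9.39 and 8.55 in OVE, a 6.08-fold difference of 2.60 ± 0.23 (adjusted p = 0.000393). The FVB values lay close together, and the lowest OVE array was far above them. Slc34a2, a phosphate carrier better known from gut and lung, rose 2.25-fold, from 7.69, 7.34 and 7.10 to 8.48, 8.84 and 8.31, and Slc20a1, a further phosphate carrier, 1.68-fold. The main renal phosphate carrier Slc34a1 (-0.12 ± 0.07), Slc34a3 (-0.26 ± 0.16) and the vitamin D receptor Vdr (-0.11 ± 0.08) did not pass. Casr, the calcium-sensing receptor, fell from 10.42, 10.27 and 10.26 to 9.57, 9.31 and 9.45 (1.83-fold). Kl, the FGF23 co-receptor klotho, fell from 11.49, 11.57 and 11.81 to 11.12, 11.17 and 11.26. The magnesium channel gene Trpm6 and Egf, whose product stimulates that channel, fell 1.47-fold and 1.62-fold. Cyp27b1, Slc34a2, Casr, Egf and Pvalb held under omission. The 5 rises were 2 without FVB replicate 1 or 2 or OVE replicate 2 and moved by over 1.5 times without FVB replicate 3 or OVE replicate 1, and the 5 falls were 3 without FVB replicate 3 or OVE replicate 1 or 2.

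Transporter genes for organic ions fell more often than they rose, 5 against 1 of 28, beside 2.38% of all genes tested that fell. Slc22a26, an organic anion transporter, stood at 10.31, 9.40 and 9.36 in FVB and at 7.99, 7.92 and 8.18 in OVE, and at 3.16-fold it fell most among called genes without overlap. The related genes Slc22a27 (2.17-fold), Slc22a30 (2.27-fold) and Slc22a22 (1.35-fold) fell too. So did Slc22a29 (2.18-fold), which was not on the list of 28 and is not 1 of its 5 falls. Slc22a29 went from 10.06, 9.75 and 9.96 to 8.94, 8.23 and 9.24. Such close relatives may share probe sequence, which was not tested. Abcb1a, a drug efflux pump, fell 1.57-fold and Slco4c1, a carrier of hormones and drugs, rose 1.79-fold. Among 25 amino acid transporters, Slc38a3, which brings glutamine into the tubule for ammonia production, rose from 10.12, 10.07 and 9.83 to 11.15, 11.31 and 11.01 (2.22-fold), with no overlap. Slc7a13, Slc7a12 and Slc6a20b fell 1.68-fold, 1.44-fold and 1.33-fold. Slc22a26, Slc22a29 and Slc38a3 held under omission, and the 5 falls were 1 without OVE replicate 2 and moved by over 1.5 times without FVB replicate 1 or 2. The 3 amino acid transporter falls were 0 without OVE replicate 2 and moved by over 1.5 times without FVB replicate 1.

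Of 13 androgen-responsive genes 2 rose and 3 fell, in kidneys with the Xist and Y-linked values of females. These counts and those of P450 genes stand beside 4.9% of all genes tested that rose and 2.38% that fell. Kap, an abundant androgen-regulated proximal tubule gene, fell from 13.55, 12.91 and 13.29 to 12.45, 11.99 and 11.92 (2.19-fold), in the same list in which Cyp4a12a, an arachidonic acid hydroxylase, rose from 8.69, 9.76 and 8.72 to 10.70, 10.21 and 9.78. Cytochrome P450 genes as a family rose in 7 and fell in 4 of 22 cases. Cyp1b1 (2.36-fold) and Cyp2j13 (2.40-fold) rose, and Cyp2d12 (2.26-fold) and Cyp4b1 (1.76-fold) fell, the former from 8.61, 9.04 and 8.76 to 8.33, 7.29 and 7.27. Aldh1a7, an aldehyde dehydrogenase, stood at 6.18, 6.74 and 6.53 in FVB and at 8.24, 8.33 and 8.34 in OVE (3.53-fold, adjusted p = 0.000393). Agmat, Apom, Akr1c20 and Hpd, enzymes and a lipid carrier of proximal tubule or liver type metabolism, fell between 1.92-fold and 2.03-fold. Apom stood at 8.44, 8.57 and 8.49 against 7.66, 7.34 and 7.67, with no overlap. Aldh1a7, Agmat, Apom, Akr1c20 and Cyp1b1 held under omission. The P450 rises were 2 without FVB replicate 3 and moved by over 1.5 times without FVB replicate 1, D6 replicate 1 or OVE replicate 1 or 2. The 4 P450 falls were 1 without FVB replicate 2 or 3 or OVE replicate 2 and moved by over 1.5 times without FVB replicate 1. The 2 rises on the androgen list were 0 without FVB replicate 1 or 3 or OVE replicate 2 and 4 without OVE replicate 3, and moved by over 1.5 times without OVE replicate 1. Its 3 falls were 0 without FVB replicate 1 or OVE replicate 2 and moved by over 1.5 times without FVB replicate 2. Kap lost its call without FVB replicate 1 or 3 or OVE replicate 2 or 3.

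Some segment markers of the nephron fell, where 2.38% of all genes tested did so. In the thick limb and distal convoluted tubule, which reabsorb salt and magnesium, 5 of 18 genes fell, 17 of 18 differences were negative, and 11 of 18 had OVE wholly below FVB, beside 13.5% of all genes tested. Pvalb, the calcium-binding parvalbumin of the distal tubule, stood at 8.91, 9.02 and 9.11 in FVB and at 8.22, 7.98 and 8.31 in OVE (1.79-fold). Egf stood at 12.62, 12.45 and 12.54 against 11.97, 11.58 and 11.99. Bsnd, the chloride channel subunit barttin, fell 1.51-fold, and Slc12a3, the thiazide-sensitive cotransporter, 1.30-fold with adjusted p = 0.0481. Umod (-0.26 ± 0.10) and Slc12a1 (-0.27 ± 0.15) did not pass. In intercalated cells, the acid and base handling cells of the collecting duct, 5 of 18 genes fell and the median was -0.28. Slc26a4, the bicarbonate exchanger pendrin, fell from 9.03, 9.15 and 9.35 to 8.49, 8.44 and 8.34, Insrr, an alkali-sensing receptor kinase, 1.55-fold, Rhbg, an ammonia channel, 1.46-fold, the proton pump subunit Atp6v1b1 1.41-fold and Car4 1.32-fold.

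Principal cells and proximal tubule changed in fewer genes, to be read beside the 2.38% of all genes tested that fell. The water channel Aqp4 (1.67-fold) and the mineralocorticoid receptor Nr3c2 (1.29-fold) fell among 15 principal cell genes, and Aqp2 did not pass, at 10.45, 10.70 and 9.78 against 10.61, 10.63 and 10.68. Of 17 proximal tubule markers Kl and Lrp2 fell, the latter, the albumin receptor megalin, from 13.43, 13.33 and 13.40 to 13.04, 12.90 and 13.15. Cldn8, a claudin of the distal nephron, was the 1 of 16 tight junction genes that passed (1.25-fold lower). Limma called 0 of 7 osmotic stress genes, with 0 at an unadjusted p under 0.05. Pvalb, Egf, Slc26a4 and Insrr held under omission. The distal count of 5 was 2 without OVE replicate 2 and moved by over 1.5 times without FVB replicate 2 or 3, OVE replicate 1, D6 replicate 3 or OVE-D6 replicate 3. The intercalated count was 2 without FVB replicate 1 or OVE replicate 2 and moved by over 1.5 times without FVB replicate 3 or OVE replicate 1. The 2 principal cell falls were 0 without FVB replicate 2 or OVE replicate 2 and moved by over 1.5 times without 7 further arrays. The proximal count was 0 without FVB replicate 3 or OVE replicate 1 or 2 and 4 without OVE replicate 3.

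**Figure D3:**
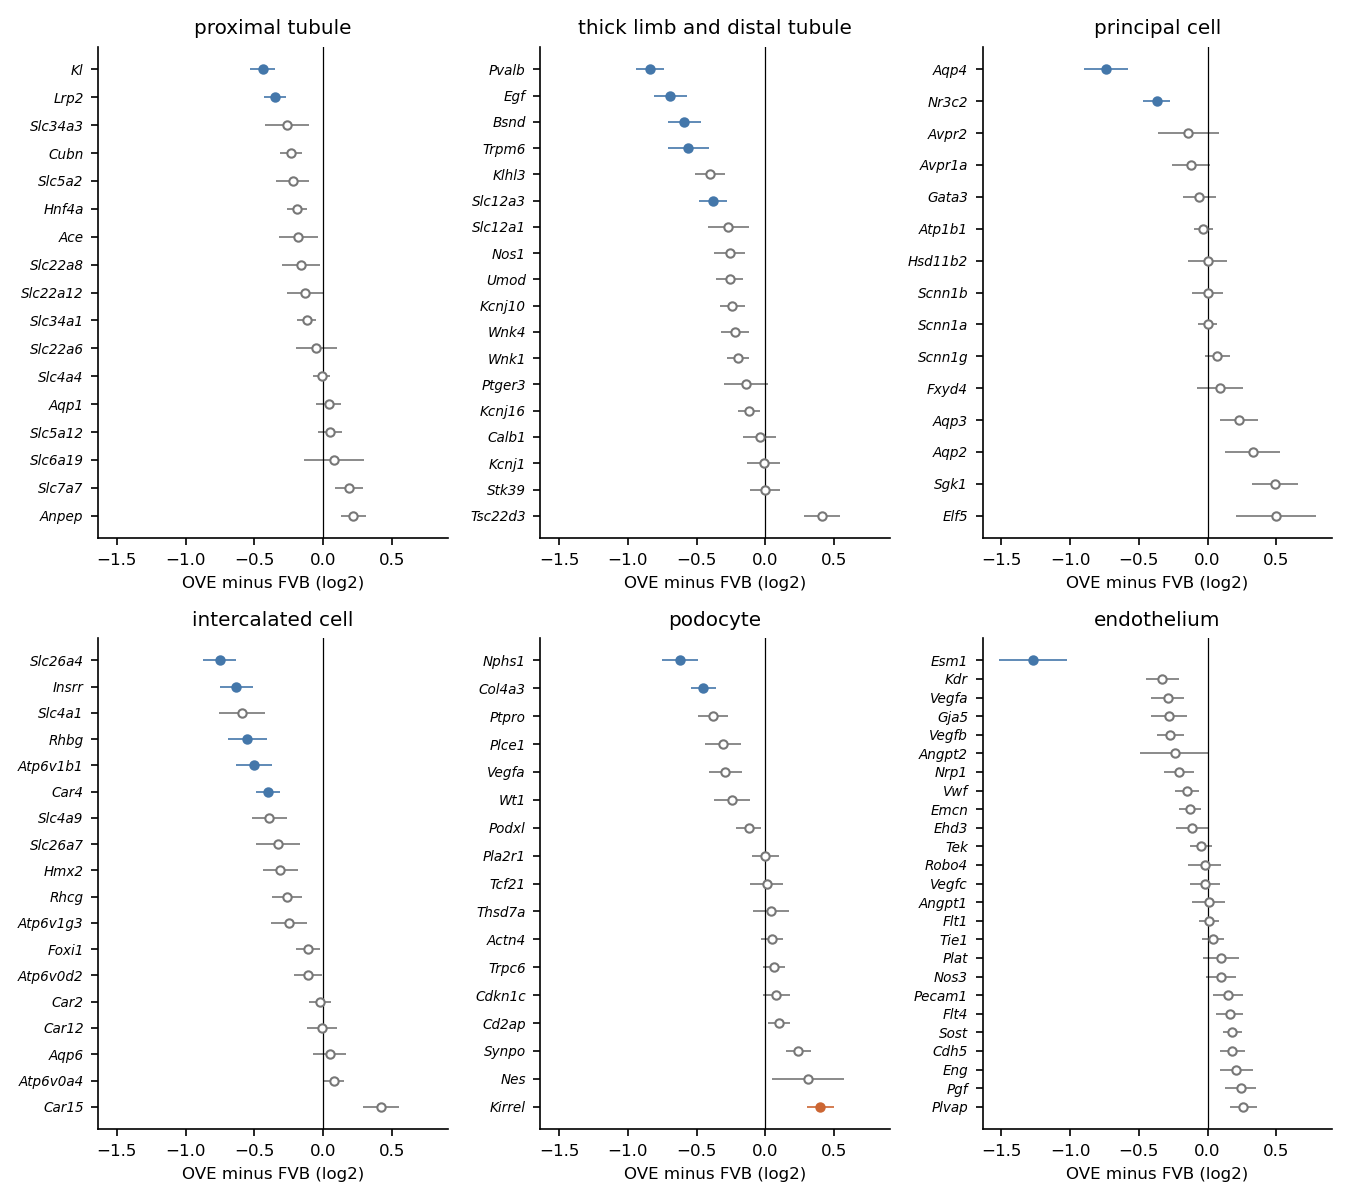
Differences OVE minus FVB (log2, horizontal axis) with standard errors for every tested gene of 6 marker lists, blue where the gene fell, orange where it rose and open grey where it did not pass. Thick limb and intercalated cell genes lie mostly left of 0, with medians of -0.25 and -0.28, while podocyte and endothelial genes lie around 0, with medians of 0.01 and -0.02.

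Glomerular genes changed at single points, to be read beside the 4.9% of all genes tested that rose and the 2.38% that fell. Nphs1, the slit diaphragm protein nephrin, fell from 8.32, 8.21 and 8.34 to 7.78, 7.37 and 7.87 (1.53-fold, adjusted p = 0.0186), Col4a3 fell as given above, and Kirrel, a partner of nephrin, rose from 7.74, 7.94 and 7.61 to 8.17, 8.27 and 8.03. The remaining 14 of 17 podocyte genes did not pass, Wt1 with -0.24 ± 0.13 and Synpo with 0.24 ± 0.09 among them. Of 25 endothelial genes Esm1, a secreted proteoglycan that VEGF induces, alone passed, at 8.61, 8.56 and 8.88 in FVB and 6.82, 7.32 and 8.08 in OVE. Its OVE arrays were widely spread, and replicate 3 was the nearest to FVB. Vegfa (10.60, 10.57 and 10.62 against 10.23, 10.07 and 10.62) and its receptor Kdr (-0.33 ± 0.12) did not pass, and in Vegfa OVE replicate 3 equalled the highest FVB array. Itga8 of the mesangium fell 1.28-fold, 1 of 8 genes on its list. In the renin-angiotensin list of 9, Agt, angiotensinogen, rose from 10.39, 10.01 and 9.91 to 11.22, 11.12 and 10.56, and Mme (1.38-fold) and Nr3c2 fell, while Ace (-0.18 ± 0.14) and Agtr1a (-0.20 ± 0.10) did not pass. Col4a3 alone held under omission here. The call of Nphs1 was lost without FVB replicate 1 or 3 or OVE replicate 2, that of Esm1 without FVB replicate 3 or OVE replicate 2, that of Kirrel without FVB replicate 1 or 3 or OVE replicate 1 or 2, and that of Agt without FVB replicate 2 or 3 or OVE replicate 1 or 2. Without OVE replicate 3, 5 of 17 podocyte genes and 3 of 25 endothelial genes fell, beside 654 of all 16480 genes tested.

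**Figure D4:**
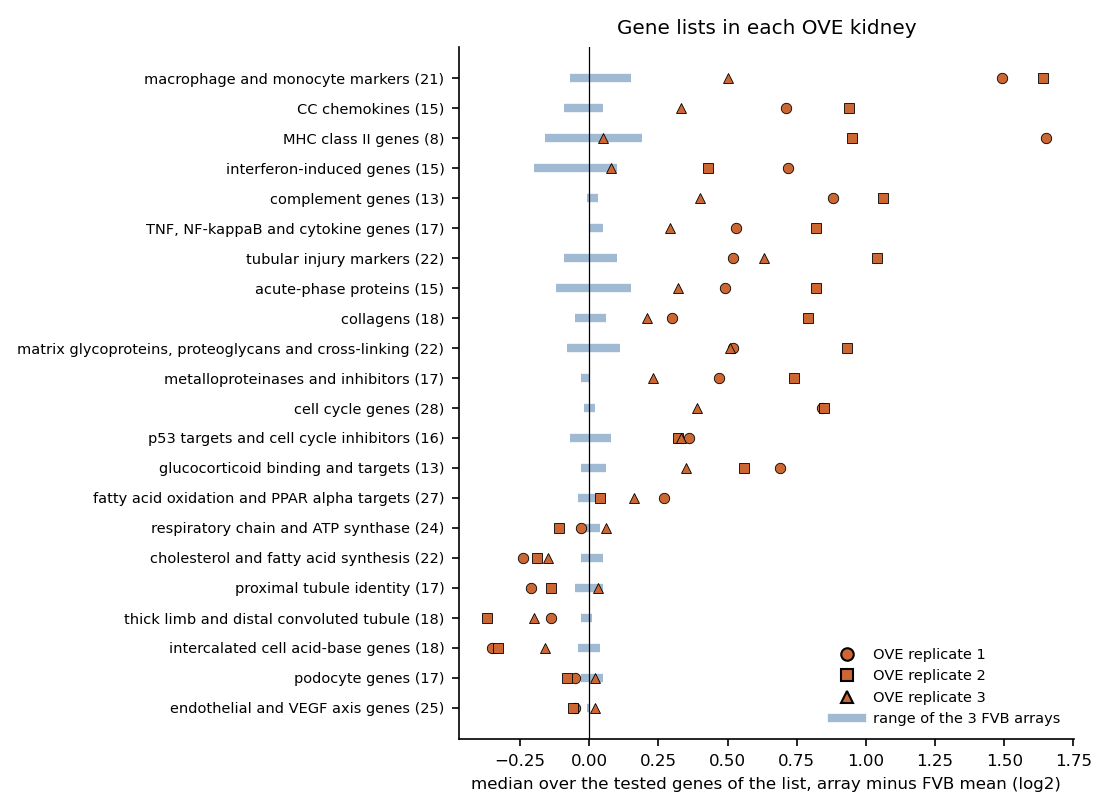
For 22 gene lists, the median over the tested genes of each OVE array minus the FVB mean (log2, horizontal axis), with a symbol per OVE replicate, a blue bar for the range of the 3 FVB arrays, and the number of tested genes in brackets. OVE replicate 1 leads in MHC class II and interferon genes, OVE replicate 2 in injury, acute-phase and matrix genes, and OVE replicate 3 lies close to FVB in the former 2 lists.

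Set side by side, the lists ordered the OVE kidneys differently. OVE replicate 1 led for MHC class II genes (1.65), interferon-induced genes (0.72) and the glucocorticoid list (0.69). OVE replicate 2 led for tubular injury (1.04, with 0.52 and 0.63 in replicates 1 and 3), matrix glycoproteins (0.93, with 0.52 and 0.51) and collagens (0.79, with 0.30 and 0.21). OVE replicate 3 was lowest for macrophage markers (0.50, with 1.49 and 1.64), but it was not lowest for tubular injury and matched the others for p53 targets. For immediate early genes it was the highest, at 0.56 beside 0.12 and 0.27. These are values of single kidneys, and differences between kidneys of 1 group were not tested.

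Several of the 10 smallest p values, predicted genes left out, belonged to genes with moderate folds and even OVE kidneys. Sulf2, a sulfatase that trims heparan sulfate, stood at 8.46, 8.41 and 8.55 in FVB and at 9.59, 9.61 and 9.28 in OVE (2.02-fold). Reep6, an endoplasmic reticulum shaping protein, stood at 11.07, 11.19 and 11.04 against 12.02, 12.04 and 12.22 (1.99-fold). The peptidase gene Xpnpep2 stood at 8.36, 8.46 and 8.46 against 9.40, 9.26 and 9.19 (1.81-fold). In each, every OVE array lay above every FVB array. Clca3a2, a calcium-activated chloride channel regulator, rose 3.65-fold. Among falls, Fcamr, an Fc receptor for IgA and IgM, went from 7.34, 7.76 and 7.39 to 6.31, 6.24 and 6.17 (2.39-fold), Spats2l from 8.60, 8.49 and 8.34 to 7.62, 7.60 and 7.54, and Sntg1, a syntrophin, from 6.33, 5.92 and 5.67 to 4.92, 5.15 and 5.18, partly below the background level. Nepn (2.38-fold), Egfl6 (2.20-fold), Wfdc15b (2.08-fold), Corin (2.04-fold), Slitrk6 (1.92-fold) and Dusp15 (1.84-fold) completed the 20 genes that fell most. Sulf2, Reep6, Xpnpep2, Clca3a2, Fcamr, Spats2l, Sntg1 and Nepn held under omission, and Egfl6, Wfdc15b, Corin, Slitrk6 and Dusp15 did not.

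The same difference was read in knockouts, as OVE-D6 minus D6, which shares no array with OVE minus FVB. The called genes were chosen on the OVE against FVB difference, so their sizes there are favoured by the choice, and the sizes without D6 are given as a description. The 808 genes that were higher had a median of 0.14 without D6, 618 of them with a positive sign, and 26 were called the same way. The 392 that were lower had a median of -0.18, 344 with a negative sign, and 14 were called the same way. The difference between the 2 genotypes was tested as an interaction in limma, which called 0 of 16480 genes (smallest adjusted p = 0.173), with 1647 at an unadjusted p under 0.05. Without OVE replicate 3 the interaction gave 377 calls, 353 of them negative, and without D6 replicate 1 it gave 1.

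Named genes fell into different places in that view. Several transport and metabolic genes had close values in both genotypes, Slc38a3 at 1.15 with D6 and 1.18 without, Reep6 at 0.99 and 0.97, Xpnpep2 at 0.86 and 0.86, Aldh1a7 at 1.82 and 1.59, Casr at -0.88 and -0.87, Slc22a26 at -1.66 and -1.49, and Kap at -1.13 and -1.37. Pdk4 and Cyp4a12a had larger values without D6, 1.75 and 2.47 beside 1.28 and 1.17. Myeloid genes stood apart in value. Lyz2 was at 2.78 with D6 and 0.03 without, Ccr2 at 1.56 and -0.61, Cd14 at 1.26 and -0.01, C5ar1 at 0.86 and -0.05, Csf2rb, a cytokine receptor chain, at 0.92 and -0.27, and the Fc receptor gene Fcgr3 at 0.73 and -0.30, while Csf1, higher in every OVE than FVB array, was at -0.15 without. With Cyp27b1 (2.60 and 0.77), Tgfbi (1.06 and 0.22) and Cytl1 (-0.51 and 0.31) these 7 had the 10 smallest interaction p values, predicted genes left out. None of the 10 passed the interaction test by limma, each with adjusted p = 0.173, so a difference between the genotypes was not detected for any single gene with these arrays. Non-diabetic levels of some of the 10 also differed between genotypes. The D6 and FVB means were 9.59 and 8.77 for Lyz2 and 7.22 and 6.32 for Cyp27b1. They were close for Cd14 (6.89 and 6.83) and Ccr2 (5.83 and 5.84). The part of these levels in the values above was not tested. The list medians without D6 were -0.17 for macrophage markers, 0.24 for tubular injury, 0.08 for matrix glycoproteins and 0.43 for fatty acid oxidation, beside 1.26, 0.76, 0.63 and 0.19 with D6.

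**Figure D5:**
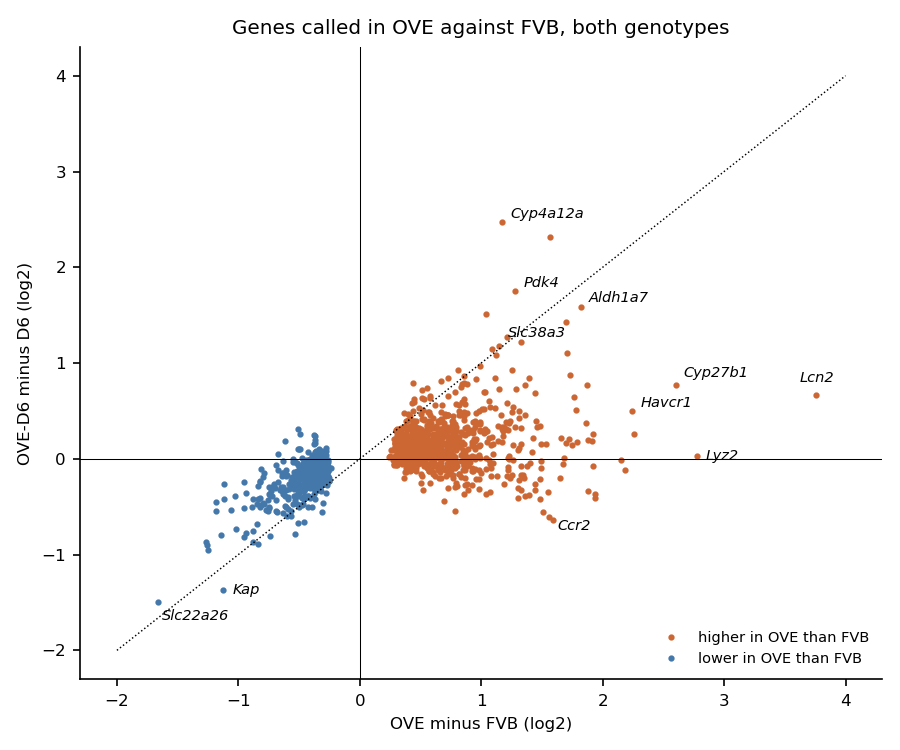
Each point is 1 of the 1200 genes called in OVE against FVB, with that difference (log2) on the horizontal axis and OVE-D6 minus D6 (log2) on the vertical axis, and the dotted line marks equal values. Slc38a3, Aldh1a7 and Slc22a26 lie near the line, while Lyz2 and Ccr2 lie far below it.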

How the data were processed

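Kidney RNA of 12 mice, 100 ng each with an integrity number above 8.8, was amplified with a whole-transcript kit, labelled with biotin and read on GeneChip arrays, per the labels' protocols. The authors deposited log2 values, 1 per probe set and array; how they were summarised and normalised is not given in the sources used here. Array medians lay between 6.84 and 6.93, and the values were used as deposited. Of 35556 probe sets, 21789 had 1 gene symbol, 1621 several and 12146 were not named here. Symbols came from the platform annotation, updated through the RefSeq gene table (GRCm38.p6) for 21698 probe sets by Entrez identifier. The probe set with the highest mean stood for a gene, giving 19936 genes, and the 16480 above the array's 25th percentile on at least 3 arrays were tested.

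Tests used limma 3.58.1 in R 4.3.3, a group-means model over all 12 arrays, contrasts, eBayes and Benjamini-Hochberg adjustment, two-sided, at 0.05. The scripts were tested on simulated data. Each array is 1 mouse per the labels' protocols, and no batch is given there. Replicate numbers did not pair the samples (correlations of deviations 0.123, 0.038 and 0.092). The comparison, the gene lists and the naming rule were chosen with earlier results of these data known, and lists are described by counts and medians without a test. The text names the 20 largest rises and 20 largest falls among called genes without overlap and the 10 smallest p values of each contrast, predicted genes left out in both. It also names up to 6 called members of each list, the first 4 members of each list, any member of lists of 20 or fewer, and check genes. Other settings tried were filters, scalings, ways of combining probe sets, variance models, fits on fewer arrays (each of the 12 omitted once), thresholds and a replicate block. Promoter windows from RefSeq were searched by exact letters. Figures used Python 3.11.15, pandas 2.3.3, numpy 2.4.6 and matplotlib 3.10.9.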

Additional observations from a re-analysis of the deposited data

Results flagged for a closer look

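Probe sets without a single gene symbol were not used in the comparisons above. Of 9561 such probe sets, tested in the same limma model together with all others, 75 were higher and 50 were lower in OVE than in FVB at an adjusted p under 0.05. In that fit 606 of all 27586 probe sets were higher and 253 lower. Both shares were therefore smaller among probe sets without a single symbol. The latter are reported here because the comparisons left them aside, and they cannot be described by gene.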

How the results depend on the processing

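No named call changed direction under any of the 22 alternative fits, and 81 of the 221 called genes picked by the naming rule kept their call in all 22. The total of 1200 was 440 with FVB and OVE arrays alone, 245 at an adjusted p of 0.01, 535 with a 1.5-fold minimum added, and 359 to 1901 with 1 array left out. The 808 higher genes were 325, 181, 453 and 268 to 1247 under the same settings. The 392 lower genes were 115, 64, 82 and 91 to 654, and 870 after median centring. With FVB and OVE arrays alone, list counts of rises changed unevenly. They were 16 for cell cycle genes, 10 for tubular injury, 7 for macrophage markers and 4 for complement, against 18, 12, 19 and 9. They were 1 for cathepsins, 1 for Toll-like genes and 0 for the oxidase list, against 6, 6 and 5. The interaction, with 0 calls, ranged from 0 to 377 with 1 array left out. Without OVE replicate 2, 352 of its 359 calls were among the 1200, and without OVE replicate 3, 1070 of the 1200 remained. With the replicate number as a block, which does not pair these samples, the total was 971, of which 896 were shared with the 1200. List medians moved by no more than 1 SD in 1410 of 1472 cases, the SD being that of the list median over the 3 OVE arrays. Some fits cannot move an OVE minus FVB difference. These include fits without a knockout array, with FVB and OVE arrays alone, or with the replicate block. In them the list medians and the directions of calls were fixed in advance. Causes were not tested. In FVB, 120 of the genes that rose lay at or under the background level, where a fold is limited by background.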
